A study of Mus musculus with 12 samples.

Results

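Glycolysis and hypoxia response genes were followed as a set of 39 named genes in mouse jejunal epithelium labelled Ctrl or Fzd5KO. Fzd5 encodes a Wnt receptor. The names were looked up as symbols in a table of 55421 genes and were found on 40 rows, because the symbol Aldoa stands on 2 of them. Of these, 38 rows with 37 names reached at least 1 TPM (a level scaled for transcript length and for the total of the library) in at least 3 of the 12 libraries. They were therefore among the 14510 genes tested. The members that did not pass were Ldhb, which stayed at or below 0.55 TPM in every library, and P4ha2, which reached at most 1.19 TPM and 1 TPM in only 2 libraries. Just inside the threshold stood Adm, with at least 1 TPM in 4 libraries and at most 2.02 TPM; 3 of those 4 were Fzd5KO libraries of day 3, so its passing depended on the group in which it was highest. The names were chosen with earlier results of these data known, so counts over them describe the set and are not independent of those results.

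Glycolysis turns glucose into pyruvate through a chain of kinases, isomerases, an aldolase, a dehydrogenase, a mutase and an enolase, and lactate dehydrogenase can then reduce pyruvate to lactate. Many of these enzymes are encoded by targets of the hypoxia-inducible factors (HIF), dimers of an oxygen-regulated alpha subunit (Hif1a or Epas1) and a stable partner (Arnt). When oxygen is present, prolyl hydroxylases of the Egln family mark the alpha subunits for destruction, so HIF activity is set mainly on the protein, which RNA levels do not show. In the small intestine the surface of the villi is poor in oxygen, and absorptive cells along the crypt-villus axis differ in their use of glucose, lactate and glutamine.

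The study compared 2 genotypes, Ctrl and Fzd5KO, on 2 days, day 1 and day 3, with 3 libraries in each of the 4 groups. RNA came from intestinal epithelial cells of the jejunum and was made into stranded total RNA libraries. All 4 groups share tissue and preparation; the labels give no strain, age, sex, Fzd5 allele or Cre line, and the event behind day 1 and day 3 is not named there. The labels do not say whether the 3 libraries of a group came from separate mice, so each p-value measures only the spread between these libraries.

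The DNA letters that HIF dimers are known to recognise lie upstream of most of these genes, and 4 such stretches are shown because they precede members on which the results turn. Egln3, Bnip3 and Hif1a are the 3 members with the largest rise at day 3 among those with a single start in the RefSeq promoter table, and Ldha was the most abundant member. Each stretch is the 250 bases before the transcription start in build GRCm38.p6, read 5′ to 3′ on the gene's strand. Capitals mark the core hypoxia response motif, ACGTG or GCGTG on either strand (CACGT or CACGC when it lies on the other), with the palindrome CACGTG, which is also an E-box, counted as 1 site. The windows are chr12:54203875-54204124 (minus strand) for Egln3, chr7:138909507-138909756 (minus strand) for Bnip3, chr12:73907617-73907866 (plus strand) for Hif1a, and chr7:46845554-46845803 (plus strand) for 1 of the 2 Ldha starts; the RefSeq start of Hif1a lies within the gene span given further on.
Egln3: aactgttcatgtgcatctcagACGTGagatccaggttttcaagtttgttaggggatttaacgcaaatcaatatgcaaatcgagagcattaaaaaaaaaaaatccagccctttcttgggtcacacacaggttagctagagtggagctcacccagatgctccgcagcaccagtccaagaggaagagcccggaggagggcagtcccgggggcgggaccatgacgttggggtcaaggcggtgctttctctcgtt
Bnip3: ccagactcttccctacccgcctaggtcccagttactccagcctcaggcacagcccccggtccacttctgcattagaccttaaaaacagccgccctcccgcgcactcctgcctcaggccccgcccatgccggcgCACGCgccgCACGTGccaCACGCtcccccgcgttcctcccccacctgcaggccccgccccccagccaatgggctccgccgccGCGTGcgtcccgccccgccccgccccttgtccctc
Hif1a: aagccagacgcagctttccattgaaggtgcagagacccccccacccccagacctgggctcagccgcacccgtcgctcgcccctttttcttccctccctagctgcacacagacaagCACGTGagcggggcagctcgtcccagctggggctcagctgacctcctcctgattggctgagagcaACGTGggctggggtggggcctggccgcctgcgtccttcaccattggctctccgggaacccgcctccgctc
Ldha: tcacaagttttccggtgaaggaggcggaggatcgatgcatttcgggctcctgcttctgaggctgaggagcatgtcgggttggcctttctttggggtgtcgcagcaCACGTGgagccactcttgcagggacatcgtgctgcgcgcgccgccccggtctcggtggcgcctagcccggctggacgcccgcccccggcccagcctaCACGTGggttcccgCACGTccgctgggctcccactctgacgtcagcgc

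The Egln3 window held 1 core site, 229 bases before the start. The Bnip3 window held 4, at 117, 108, 99 and 35 bases, the Hif1a window 2, at 135 and 70 bases, and the Ldha window 3, at 145, 48 and 34 bases. Of the 39 member names 36 had at least 1 promoter in the table, those missing being Bnip3l, Epas1 and Ndrg1, and 34 of the 36 (94.4%) held the core letters before at least 1 start. The same was so for 60.8% of the 9672 tested genes with a promoter and for 41.5% of all 27025 genes in the table. Counted by promoter, the shares were 78.2% of 55 member promoters, 54.9% of 12365 promoters of tested genes and 38.6% of all 32851. In this count each start is judged alone, and a gene with several starts enters several times. Only Gpi1 and Tpi1 lacked the letters, and both rose at day 3. Of the 23 members with a promoter that rose at day 3, 21 (91.3%) held the letters, near the 94.4% of all members. The set was chosen to hold hypoxia response genes, so its higher share than other genes is not independent of that choice. A match to 5 letters describes the sequence and is not evidence of binding.

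Fzd5 itself (chr1:64730558-64737751, minus strand, mm10) was measured first, as a check of the genotype labels. At day 1 it stood at 43.5, 49.4 and 46.8 TPM in Ctrl and 31.9, 33.1 and 33.1 in Fzd5KO, and at day 3 at 68.2, 65.9 and 60.5 TPM in Ctrl and 39.7, 37.8 and 38.3 in Fzd5KO. Each Fzd5KO library was below each Ctrl library of its day, with log2 changes of -0.50 ± 0.055 (adjusted p = 0.000151) at day 1 and -0.73 ± 0.055 (adjusted p = 4.42e-07) at day 3 in limma's test with Benjamini-Hochberg adjustment. The labels do not say which part of the gene was removed, so reads from a remaining part may be included and this level is no measure of intact receptor RNA. All 8 epithelial markers listed were expressed, with a sum of at least 4925 TPM in every library, while all 6 neuroglial markers stayed below 1 TPM. Depth is unknown, since TPM keep no read totals; 21506 to 24467 genes were above 0 per library.

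The median genotype change of the members was smaller at day 1 than at day 3, and on both days it was above that of all tested genes. Changes are given throughout as log2(TPM + 1) differences with their SE from a limma fit over all 14510 tested genes, and a gene is said to rise or fall where the Benjamini-Hochberg adjusted p was under 0.05. At day 1, 11 of the 38 member rows (28.9%) were higher and 5 (13.2%) were lower in Fzd5KO, while 2.13% of all tested genes were higher and 22.8% lower. Their median change was 0.03, against -0.14 over all tested genes. At day 3, 25 of 38 (65.8%) were higher and 3 lower, against 24.3% and 38.5% of all tested genes, and the median change was 0.40 against -0.14. The other 10 rows did not pass the test at day 3. The 38 rows counted here and below include Adm and the second Aldoa row. Their passing of the filter depended on the groups in which they were higher, so their calls support nothing. Every Fzd5KO library of day 1 was above every Ctrl library of that day in 12 of 38 rows and 656 of 14510 tested genes. They were all below in 6 rows and 5641 tested genes. At day 3 these counts were 26 and 3728 above, and 3 and 5925 below. In these bulk samples, more or fewer cells of a type and more or less RNA per cell cannot be told apart.

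**Figure D1:**
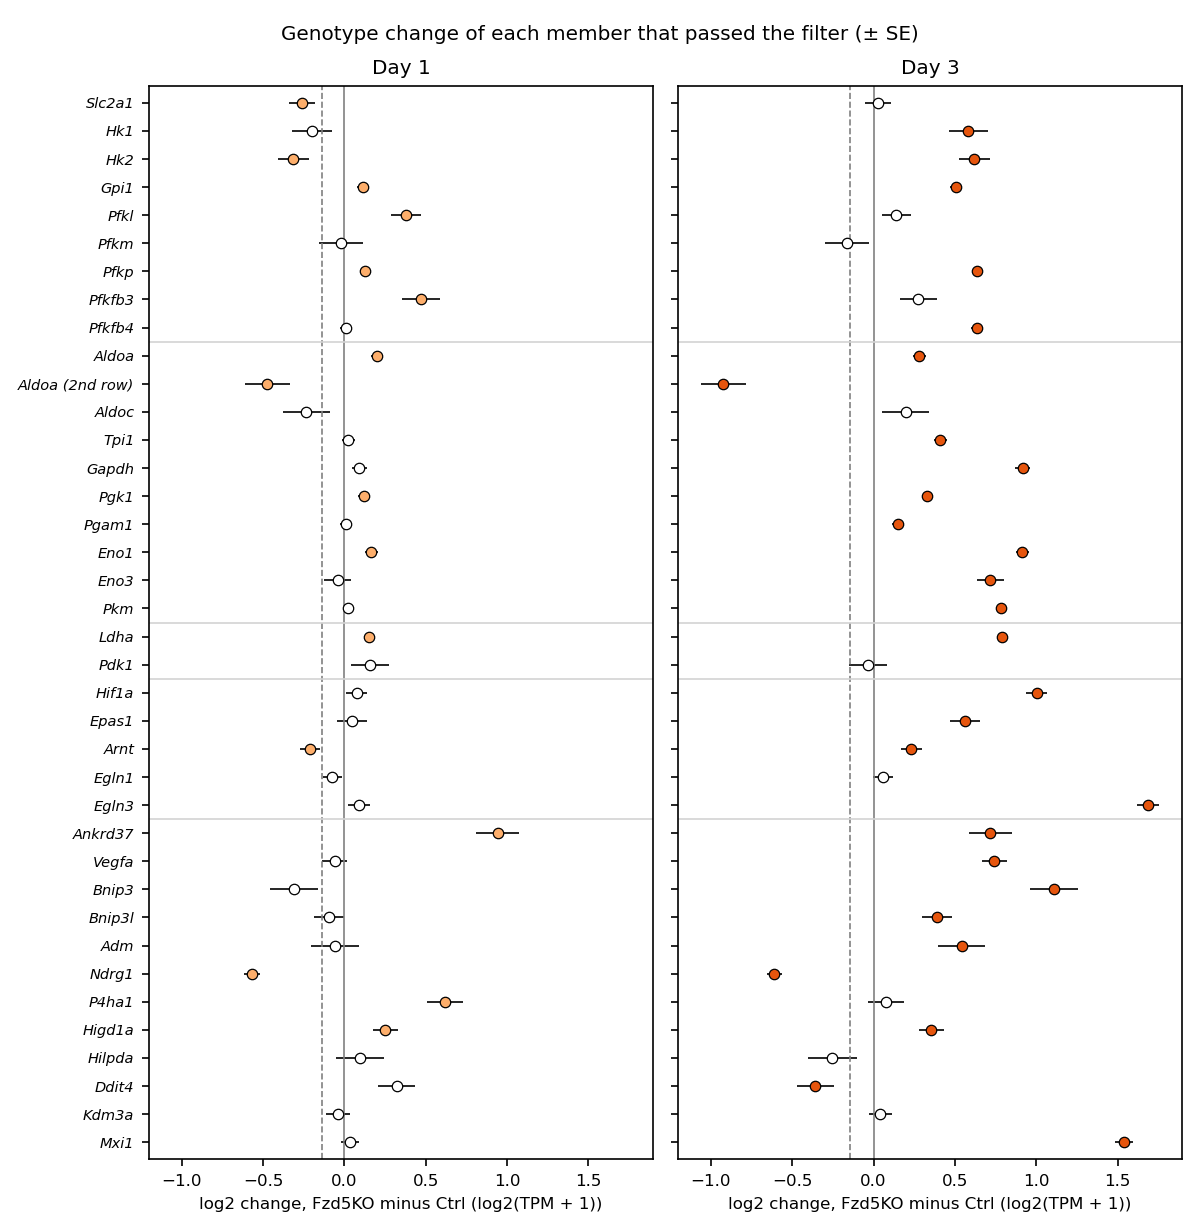
Log2 change of each member row (Fzd5KO minus Ctrl, x axis, with SE bars) at day 1 and day 3, with members on the y axis; filled points passed the adjusted p threshold of 0.05 and the dashed line is the median of all tested genes. Most points lie near 0 at day 1 and to the right at day 3, led by Egln3 at 1.69 and Mxi1 at 1.54, while Ndrg1 lies to the left on both days.

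Scaling moved the counts of day 1 more than those of day 3. The median of all tested genes went up by 0.14 (day 1) and 0.11 (day 3) with quantile normalized values, and by 0.15 and 0.13 when libraries were scaled by median of ratios. The split of day 1, 11 higher and 5 lower, became 20 and 1 with median-of-ratios scaling, 14 and 1 under quantile normalization, and 15 and 1 with TPM rescaled without mitochondrially encoded genes and the 20 most abundant genes. At day 3 these 3 splits were 29 and 2, 29 and 2, and 25 and 3. Calls over all tested genes, in either direction, went from 3622 of 14510 at day 1 to 2216, 1771 and, of 16023, 1810. At day 3 they went from 9113 to 8819, 8386 and 9867. How those calls divide into higher and lower is not given, so the member splits under these scalings lack a matching background. With no filter on low values 9 rows were higher and 1 lower at day 1, the calls lost being Gpi1, Higd1a, Slc2a1, Hk2, Arnt and the second Aldoa row (adjusted p from 0.0554 to 0.0788). With only the groups compared in the fit, Pgk1, Higd1a and Slc2a1 lost theirs at day 1 (adjusted p from 0.0508 to 0.0909). With 1 day 1 library left out 1 to 3 rows were lower. Member medians at day 3 were 0.55, 0.40 and 0.34 under these scalings, each above the median of all genes.

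**Figure D2:**
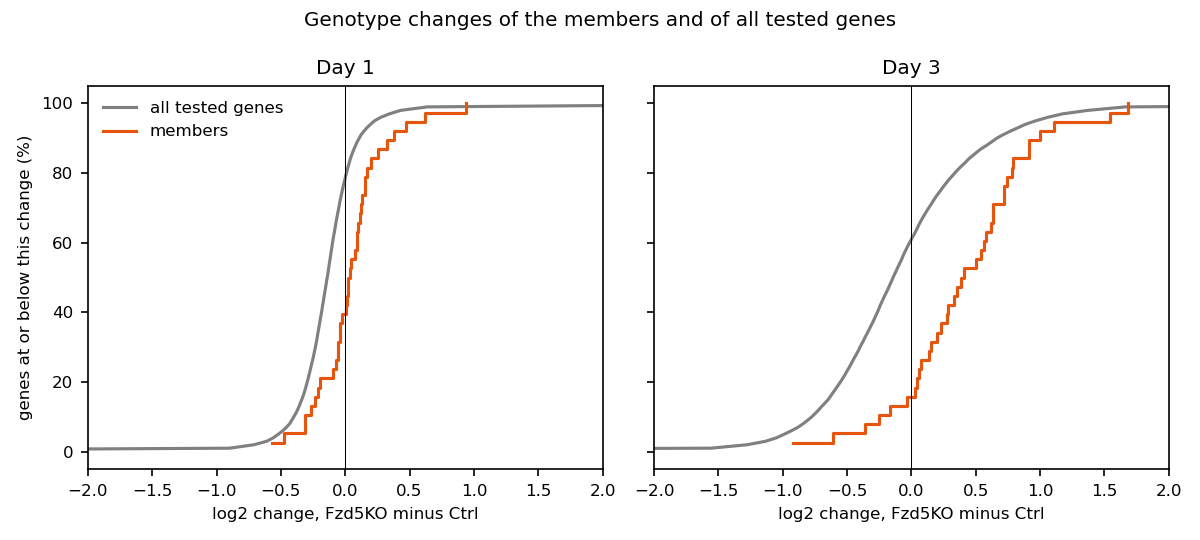
Cumulative share of genes (y axis, percent) by log2 change (x axis, Fzd5KO minus Ctrl) for the 38 member rows and for all 14510 tested genes at day 1 and day 3. The curve of the members lies to the right of the other curve on day 3, with medians of 0.40 and -0.14.

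Markers of other cell states and cell types changed beside the members. The summed level of the 8 enterocyte markers was 16274 to 17245 TPM in Ctrl and 35854 to 36989 TPM in Fzd5KO at day 3, and 8 of 8 rose. At day 1 these sums were 19304 to 20160.0 and 22407 to 23066 TPM, with 4 markers higher and 3 lower. The 8 general epithelial markers summed to 4925 to 5121 TPM in Ctrl and 7350.1 to 7523 TPM in Fzd5KO at day 3, with 6 higher and 2 lower. All 6 stem cell markers fell on both days, and their day 3 sums were 571 to 609 TPM in Ctrl and 62.8 to 67.2 TPM in Fzd5KO. Cycling genes summed to 347 to 365 TPM in Ctrl and 189 to 195 TPM in Fzd5KO at day 3, with 6 of 6 lower.

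Blood and immune cell markers also differed. T cell markers summed to 152 to 169 TPM in Ctrl and 96.6 to 115 TPM in Fzd5KO at day 1, with 3 of 7 tested lower and none higher even at an unadjusted limma p under 0.05. At day 3 these sums were 35.2 to 40.0 and 144 to 162 TPM, with 7 of 7 higher, so the order of the genotypes was opposite on the 2 days and the Ctrl level at day 3 was the lowest of the 4 groups. B and plasma cell markers summed to 14.0 to 19.6 TPM in Ctrl and 9.11 to 9.99 TPM in Fzd5KO at day 1 and to 12.9 to 21.2 and 67.0 to 72.9 TPM at day 3, with 1 of 6 tested lower at day 1 and 6 of 6 higher at day 3. With sums this low in the other groups, some may have passed the filter only through Fzd5KO at day 3, so that count is limited. At day 3 myeloid markers summed to 8.75 to 11.6 TPM in Ctrl and 19.6 to 21.4 TPM in Fzd5KO, and red blood cell markers to 201 to 228 and 54.4 to 69.5 TPM. Fibroblast markers summed to at most 10.5 TPM and muscle markers to at most 27.8 TPM in any library. Endothelial markers summed to at most 2.54 TPM, and 5 of the 7, among them Tek, Cdh5 and Kdr, stayed below 1 TPM. The part of these cells in the changes of the members was not tested.

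**Figure D3:**
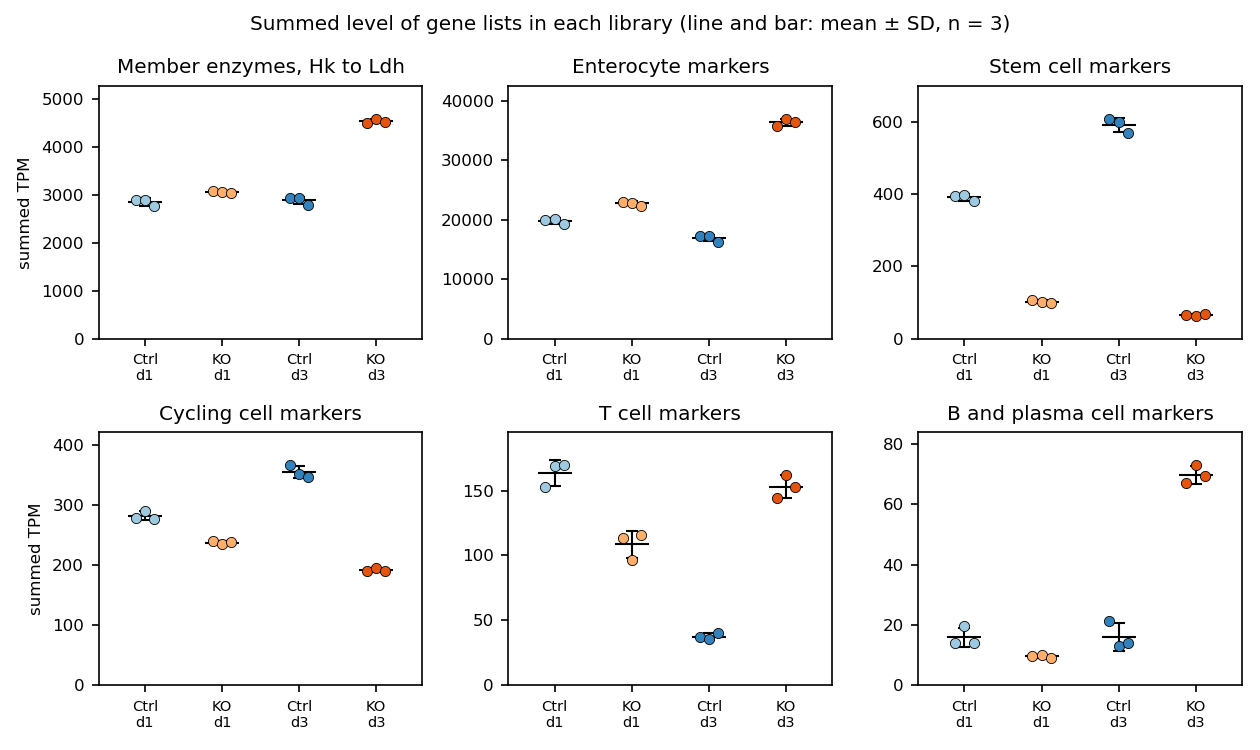
Summed TPM (y axis) of the member enzymes from hexokinase to lactate dehydrogenase and of the enterocyte, stem cell, cycling, T cell and B or plasma cell marker lists in each library, with group means and SD, n = 3 per group. Enzyme, enterocyte and B or plasma cell sums are highest in Fzd5KO at day 3 and stem cell and cycling sums are lowest there, while T cell sums are lowest in Ctrl at day 3.

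Added over the 17 listed enzymes from hexokinase to lactate dehydrogenase, the level was 2845 ± 79.9 TPM (SD, n = 3) in Ctrl and 3054 ± 24.1 in Fzd5KO at day 1. At day 3 it was 2881 ± 76.6 TPM in Ctrl and 4529 ± 42.5 in Fzd5KO. The Fzd5KO libraries of day 3 spanned 4500.3 to 4578 TPM and did not overlap those of any other group, whose highest was 3077 TPM. Most of this RNA came from Ldha, Gapdh, Pkm, Gpi1, Tpi1, Eno1 and Aldoa.

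Glucose entry and the kinases of the upper pathway were represented by 9 members, of which 5 rose and none fell at day 3, while 4 rose and 2 fell at day 1; no member of this role was lower at day 3 at an unadjusted limma p under 0.05. Of all tested genes 24.3% were higher and 38.5% lower at day 3, and 2.13% and 22.8% at day 1. The share lower at day 1 in this role, 22.2%, was thus near that of all tested genes. Slc2a1, the basolateral glucose transporter GLUT1, had 7.15, 6.88 and 8.58 TPM in Ctrl and 6.41, 5.75 and 6.12 in Fzd5KO at day 1, with each Fzd5KO library below each Ctrl library. Its day 1 change was -0.26 ± 0.080 (adjusted p = 0.0346), and it no longer passed with median-of-ratios scaling (-0.11, adjusted p = 0.446), rescaled TPM (-0.17, adjusted p = 0.271) or quantile normalization (-0.11, adjusted p = 0.5). The call also ended without Ctrl replicate 3 or any 1 Fzd5KO library of day 1 (adjusted p from 0.0513 to 0.111). At day 3 the transporter had 7.57, 8.44 and 8.02 TPM in Ctrl and 8.39, 8.04 and 8.06 in Fzd5KO, with overlapping groups and a change of 0.03 ± 0.080 (adjusted p = 0.799). With quantile normalization that change was 0.25 (adjusted p = 0.0336), and with the rescaled TPM it turned to -0.025 (adjusted p = 0.834), as it did without Ctrl replicate 1 of day 3 (-0.010).

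Hk2, an inducible hexokinase that commits glucose to the cell, had 13.8, 12.8 and 13.7 TPM in Ctrl and 10.8, 9.71 and 11.3 in Fzd5KO at day 1. At day 3 Hk2 had 11.3, 10.6 and 14.3 TPM in Ctrl and 18.9, 19.5 and 18.3 in Fzd5KO. Its Fzd5KO libraries were thus the lower ones at day 1 and the higher ones at day 3, with no overlap on either day. The changes were -0.31 ± 0.095 (adjusted p = 0.0339) at day 1 and 0.62 ± 0.095 (adjusted p = 0.000152) at day 3; the first was lost under median-of-ratios scaling (adjusted p = 0.393), rescaled TPM (adjusted p = 0.22) and quantile normalization (adjusted p = 0.375). It was also lost without any 1 of the day 1 libraries other than Fzd5KO replicate 3 (adjusted p from 0.0575 to 0.116). Hk1, the widely expressed hexokinase, was lower in level, at 2.62, 3.07 and 2.91 TPM in Ctrl and 5.04, 4.52 and 4.81 in Fzd5KO at day 3, and rose by 0.58 ± 0.12 (adjusted p = 0.00142). At day 1 Hk1 libraries overlapped, with 4.47, 2.97 and 3.85 TPM in Ctrl and 2.79, 3.64 and 2.96 in Fzd5KO.

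Gpi1, the isomerase that makes fructose phosphate, was abundant and had 298, 299.8 and 290.4 TPM in Ctrl and 322, 325 and 314 in Fzd5KO at day 1. At day 3 it had 343, 326 and 318 TPM in Ctrl and 483, 466 and 452 in Fzd5KO, and the groups did not overlap on either day. Its changes were 0.11 ± 0.036 (adjusted p = 0.0409) and 0.50 ± 0.036 (adjusted p = 2.99e-07), a ratio of mean TPM of 1.42 at day 3. Leaving out any 1 of the 6 libraries of day 1, or replicate 2 of either genotype at day 3, ended the day 1 call, with adjusted p from 0.0527 to 0.12.

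Pfkp, the main phosphofructokinase of these libraries and the committing step of glycolysis, stood at 173, 172 and 166 TPM in Ctrl and 186, 187 and 185 in Fzd5KO at day 1. At day 3 Pfkp had 177, 171 and 168 TPM in Ctrl and 268, 267 and 269 in Fzd5KO. The spread within each group was small beside the day 3 difference, and the change was 0.13 ± 0.029 (adjusted p = 0.00963) at day 1 and 0.64 ± 0.029 (adjusted p = 6.4e-09) at day 3. Pfkl, the liver-type subunit, had 13.7, 15.4 and 12.2 TPM in Ctrl and 16.6, 17.7 and 20.1 in Fzd5KO at day 1 and rose by 0.38 ± 0.090 (adjusted p = 0.0123). At day 3 Pfkl had 26.0, 25.7 and 24.6 TPM in Ctrl and 25.8, 29.6 and 29.0 in Fzd5KO, with overlapping groups. In Ctrl it was higher at day 3 than at day 1 by 0.85 ± 0.090 (adjusted p = 3.67e-05).

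Pfkfb3 and Pfkfb4 encode bifunctional enzymes that make and degrade the fructose bisphosphate that activates phosphofructokinase, and both are known hypoxia targets. Pfkfb4 had 49.6, 51.6 and 48.8 TPM in Ctrl and 50.04, 51.5 and 49.6 in Fzd5KO at day 1, where the groups overlapped. At day 3 Pfkfb4 had 49.8, 49.8 and 48.1 TPM in Ctrl and 79.4, 74.4 and 77.4 in Fzd5KO, a change of 0.64 ± 0.038 (adjusted p = 6.17e-08). Pfkfb3 showed the other order in time, with 10.6, 12.5 and 12.2 TPM in Ctrl and 16.3, 17.6 and 16.1 in Fzd5KO at day 1, a rise of 0.47 ± 0.11 (adjusted p = 0.0137). At day 3 Pfkfb3 had 18.2, 15.3 and 12.7 TPM in Ctrl and 16.8, 19.0 and 20.3 in Fzd5KO, where the groups overlapped. The remaining member of this role, the muscle-type subunit Pfkm, ranged from 3.17 to 4.66 TPM over all 12 libraries and passed in neither genotype comparison.

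The lower part of glycolysis, from aldolase to pyruvate kinase, had 10 rows tested: 8 rose at day 3 and the second Aldoa row fell. At day 1, 3 of the 10 rose and that same second row fell. Among all tested genes 24.3% were higher and 38.5% lower at day 3, and 2.13% and 22.8% at day 1. Gapdh, the dehydrogenase often used as a reference gene, had 492, 473 and 464 TPM in Ctrl and 527, 511 and 484 in Fzd5KO at day 1. At day 3 Gapdh had 428, 442 and 394 TPM in Ctrl and 798, 813 and 777 in Fzd5KO. Its Fzd5KO libraries of day 3 lay far above all other libraries, and the Ctrl libraries of day 3 were the lowest group. The changes were 0.09 ± 0.047 (adjusted p = 0.177) at day 1 and 0.92 ± 0.047 (adjusted p = 1.84e-08) at day 3, and the first passed with median-of-ratios scaling (0.26, adjusted p = 0.00166), rescaled TPM (0.20, adjusted p = 0.00606) and quantile normalization (0.14, adjusted p = 0.0157).

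Eno1, the main enolase, had 216, 221 and 203 TPM in Ctrl and 239, 238 and 241 in Fzd5KO at day 1. At day 3 Eno1 had 212, 217 and 199.8 TPM in Ctrl and 393, 403 and 392 in Fzd5KO. It rose by 0.17 ± 0.039 (adjusted p = 0.012) at day 1 and by 0.91 ± 0.039 (adjusted p = 4.28e-09) at day 3, and the groups did not overlap on either day. Eno3, the muscle-type enolase, is a minor form here, with 5.89, 6.6 and 6.32 TPM in Ctrl and 6.12, 6.23 and 5.84 in Fzd5KO at day 1. At day 3 it had 5.36, 5.48 and 4.34 TPM in Ctrl and 8.77, 8.63 and 9.42 in Fzd5KO and a change of 0.72 ± 0.082 (adjusted p = 1.53e-05). A near-identical copy, Eno1b, was counted separately at 1.65 to 8.49 TPM, so the division of reads between it and Eno1 is uncertain.

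Pkm, which makes pyruvate and ATP at the last step, had 352, 359 and 329 TPM in Ctrl and 356, 349.9 and 351 in Fzd5KO at day 1, with overlapping groups. At day 3 it had 328, 336 and 321 TPM in Ctrl and 554, 576 and 568 in Fzd5KO, a change of 0.79 ± 0.035 (adjusted p = 6.4e-09) and a ratio of mean TPM of 1.73. Tpi1, which interconverts the triose phosphates, had 325, 318 and 309 TPM in Ctrl and 315, 331 and 322 in Fzd5KO at day 1. At day 3 Tpi1 had 311, 284 and 304 TPM in Ctrl and 391, 390.1 and 414 in Fzd5KO, with a day 3 change of 0.41 ± 0.040 (adjusted p = 4.51e-06). Pkm and Tpi1 did not pass at day 1.

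Aldoa, Pgk1 and Pgam1 had smaller changes. Aldoa, the aldolase of most tissues, had 214, 222 and 204 TPM in Ctrl and 248, 243 and 244 in Fzd5KO at day 1. At day 3 Aldoa had 252, 256 and 238 TPM in Ctrl and 299.9, 307 and 299.5 in Fzd5KO, and rose by 0.20 ± 0.037 (adjusted p = 0.00343) and 0.28 ± 0.037 (adjusted p = 4.52e-05). Pgk1, which makes ATP from bisphosphoglycerate, had 132, 135 and 127 TPM in Ctrl and 144, 141 and 145 in Fzd5KO at day 1, and its rise of 0.12 ± 0.035 (adjusted p = 0.0283) lost its call without any 1 of the day 1 libraries other than Ctrl replicate 2 (adjusted p from 0.0505 to 0.0862). At day 3 Pgk1 had 150.4, 155 and 146 TPM in Ctrl and 186, 195 and 187 in Fzd5KO, with no overlap and a change of 0.33 ± 0.035 (adjusted p = 7.93e-06), which was 0.11 under quantile normalization. Pgam1, the phosphoglycerate mutase, had 105, 115 and 104 TPM in Ctrl and 108, 110.4 and 108 in Fzd5KO at day 1. At day 3 Pgam1 had 119, 121 and 119 TPM in Ctrl and 131, 134 and 135 in Fzd5KO. Its day 3 rise of 0.15 ± 0.038 (adjusted p = 0.00444) turned to -0.065 (adjusted p = 0.113) under quantile normalization, so its direction depended on the scaling.

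The second row with the symbol Aldoa is a separate gene model (chr7:126800790-126809108, minus strand) next to the main one (chr7:126795234-126800751, minus strand). It was low, with 1.57, 1.45 and 1.53 TPM in Ctrl and 0.73, 0.82 and 0.89 in Fzd5KO at day 1. At day 3 the second Aldoa row had 2.15, 2.27 and 2.57 TPM in Ctrl and 0.44, 0.75 and 1.14 in Fzd5KO. It reached 1 TPM in 7 libraries, the 6 of Ctrl and 1 of Fzd5KO, so it passed the filter only through the genotype in which it was higher, and its place among the lower rows of both days supports nothing. Its fitted change was a fall of 0.47 on the log2 scale at day 1 (adjusted p = 0.0286) and of 0.92 at day 3 (adjusted p = 0.000122), opposite to the main row. The day 1 call was lost under all 3 other scalings (adjusted p from 0.0683 to 0.164) and without any 1 day 1 library (adjusted p from 0.0556 to 0.0835). Nothing in the labels says how reads were divided between these neighbours, so the low row is uncertain. Aldoc, the remaining member of this role, ranged from 6.37 to 11.5 TPM and passed in neither genotype comparison.

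**Figure D4:**
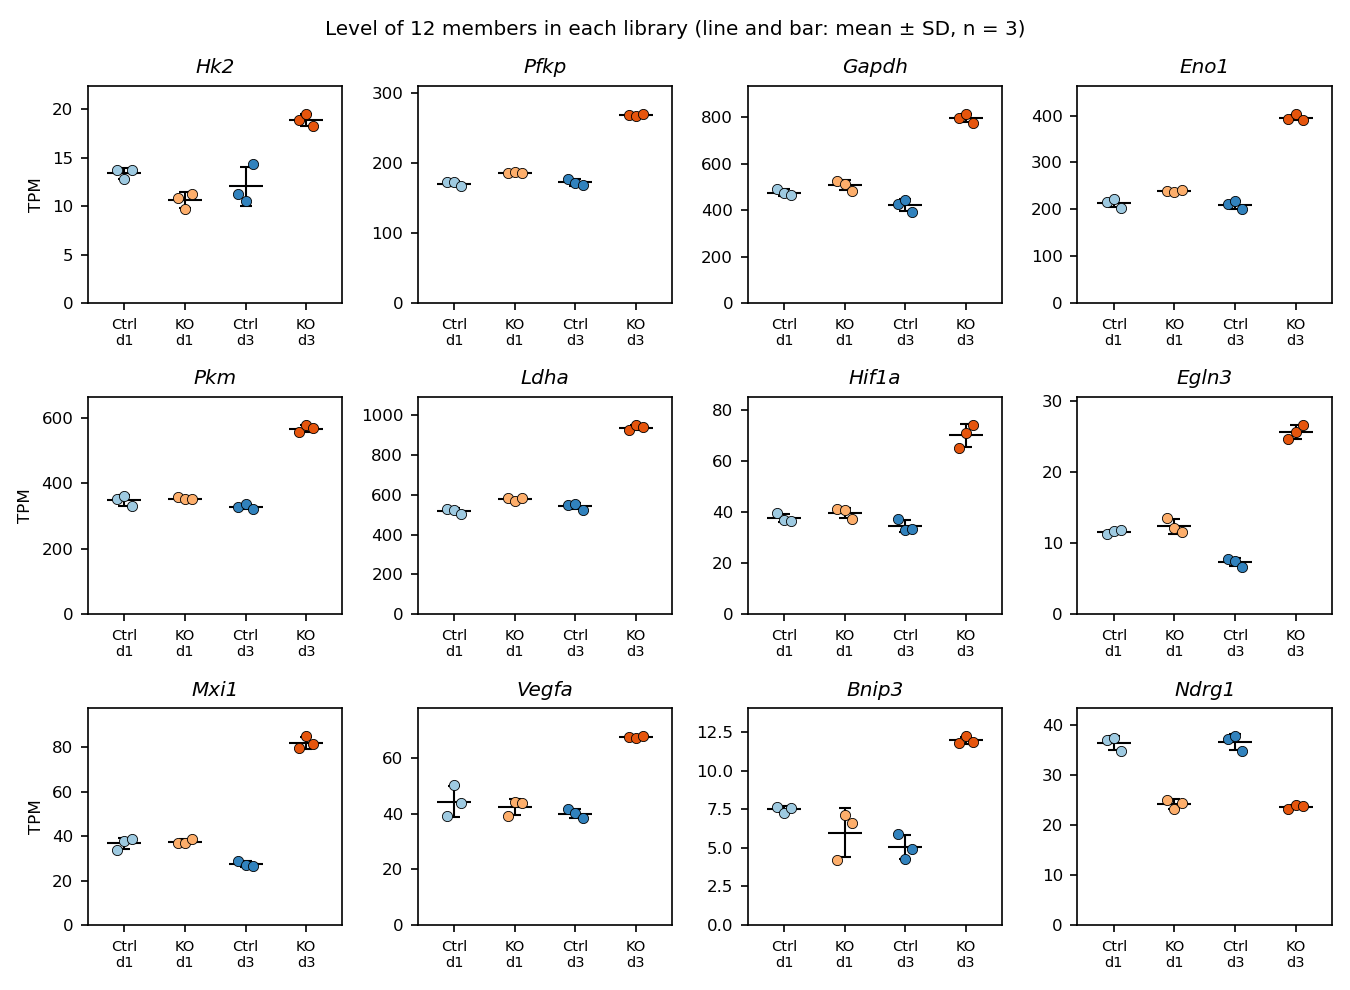
TPM (y axis) of 12 members in each library by group (x axis: Ctrl and Fzd5KO at day 1 and day 3), with group mean and SD, n = 3. Except for Ndrg1, which is lower in Fzd5KO on both days, each member shown has its highest libraries in Fzd5KO at day 3, for example 924 to 950 TPM for Ldha against 524 to 551 in Ctrl.

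At the branch after glycolysis, Ldha reduces pyruvate to lactate, and Pdk1 keeps it out of mitochondria by inactivating pyruvate dehydrogenase. Ldha had 529, 525 and 506 TPM in Ctrl and 584, 569.7 and 582 in Fzd5KO at day 1. At day 3 Ldha had 549, 551 and 524 TPM in Ctrl and 924, 949.7 and 939 in Fzd5KO. It was the most abundant member on average, and the groups did not overlap on either day, with changes of 0.15 ± 0.030 (adjusted p = 0.0047) and 0.79 ± 0.030 (adjusted p = 1.7e-09). Ldhb, the form that favours the oxidation of lactate, was practically missing, at 0.09 to 0.55 TPM, and more than 99.9% of the summed lactate dehydrogenase level of each group was Ldha. Pdk1 had 17.7, 13.8 and 16.5 TPM in Ctrl and 15.7, 19.9 and 18.4 in Fzd5KO at day 1. At day 3 Pdk1 had 23.0, 19.7 and 19.6 TPM in Ctrl and 18.5, 19.2 and 23.1 in Fzd5KO, with overlapping groups and no call on either day.

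Among the 5 HIF factors and prolyl hydroxylases, 4 rose at day 3 and none fell, while at day 1 none rose and Arnt fell; the counts of none were the same at an unadjusted limma p under 0.05. Over all tested genes 24.3% were higher and 38.5% lower at day 3, and 2.13% and 22.8% at day 1. The day 1 shares of this role, 0% higher and 20% lower, were near those of all tested genes. Hif1a (chr12:73901375-73947530, plus strand) had 39.7, 37.1 and 36.4 TPM in Ctrl and 41.2, 40.7 and 37.5 in Fzd5KO at day 1, where the groups overlapped. At day 3 Hif1a had 37.1, 33.0 and 33.5 TPM in Ctrl and 65.3, 71.1 and 74.1 in Fzd5KO. The day 3 change was 1.0 ± 0.063 (adjusted p = 1.03e-07), with a ratio of mean TPM of 2.03. At day 1 the change was 0.08 ± 0.063 (adjusted p = 0.405), and it passed with median-of-ratios scaling (0.25, adjusted p = 0.0169). Epas1, the other alpha subunit with a known role in intestinal iron uptake, was much lower, with 2.92, 4.03 and 3.27 TPM in Ctrl and 3.56, 3.55 and 3.46 in Fzd5KO at day 1. At day 3 Epas1 had 3.62, 4.02 and 3.51 TPM in Ctrl and 5.92, 6.01 and 5.93 in Fzd5KO. It rose at day 3 by 0.56 ± 0.092 (adjusted p = 0.000259) and not at day 1 (0.05 ± 0.092 (adjusted p = 0.745)).

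Arnt, the shared partner of both alpha subunits, had 20.8, 18.9 and 21.1 TPM in Ctrl and 17.0, 18.1 and 16.9 in Fzd5KO at day 1. At day 3 Arnt had 20.5, 18.7 and 18.5 TPM in Ctrl and 21.9, 22.2 and 24.2 in Fzd5KO. The Fzd5KO libraries were the lower ones at day 1 and the higher ones at day 3, with changes of -0.21 ± 0.062 (adjusted p = 0.0297) and 0.23 ± 0.062 (adjusted p = 0.0066). The fall at day 1 was lost with median-of-ratios scaling (-0.05, adjusted p = 0.685), rescaled TPM (-0.11, adjusted p = 0.347) and quantile normalization (-0.07, adjusted p = 0.539). Without replicate 1 or 3 of either genotype at day 1 it did not pass either (adjusted p from 0.0814 to 0.0877).

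Egln3, a prolyl hydroxylase that is itself induced by HIF and so can act as a brake, had the largest day 3 rise of all 38 rows. It had 11.2, 11.6 and 11.8 TPM in Ctrl and 13.6, 12.1 and 11.5 in Fzd5KO at day 1, where the groups overlapped. At day 3 it had 7.72, 7.46 and 6.69 TPM in Ctrl and 24.7, 25.7 and 26.6 in Fzd5KO, a ratio of mean TPM of 3.52 and a change of 1.69 ± 0.069 (adjusted p = 2.84e-09), above 99.1% of all tested genes. Both genotypes moved between the days: Egln3 fell in Ctrl by 0.60 on the log2 scale (adjusted p = 6.45e-05) and rose in Fzd5KO by 1.0 ± 0.069 (adjusted p = 3.94e-07). Egln1, the main hydroxylase of most tissues, ranged from 7.69 to 10.3 TPM over all libraries and passed in neither genotype comparison.

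**Figure D5:**
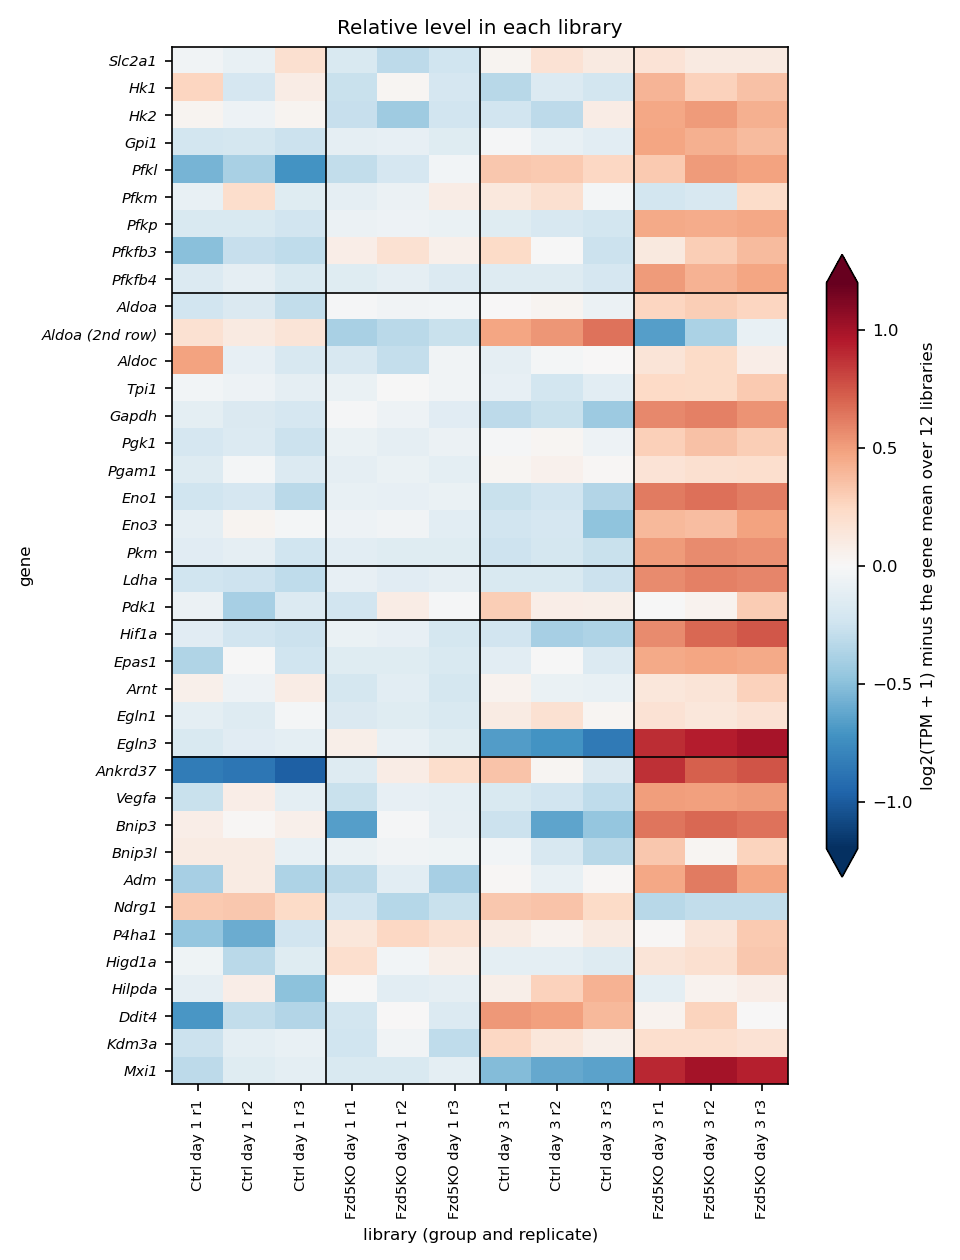
Log2(TPM + 1) of each member row in each of the 12 libraries minus the mean of that row, on a colour scale from -1.2 to 1.2, with rows ordered by role and columns by group. The 3 Fzd5KO libraries of day 3 stand above the row mean for most members, and Ndrg1 and the second Aldoa row stand below it in both Fzd5KO groups.

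The 12 other hypoxia targets that passed the filter were mixed: 7 rose and 2 fell at day 3, and 3 rose and 1 fell at day 1. Shares over all tested genes were 24.3% higher and 38.5% lower at day 3, and 2.13% and 22.8% at day 1. Mxi1, a MAX partner that opposes MYC, had 33.6, 37.8 and 38.6 TPM in Ctrl and 37.0, 36.8 and 38.8 in Fzd5KO at day 1, with overlapping groups. At day 3 Mxi1 had 29.0, 27.1 and 26.5 TPM in Ctrl and 79.8, 84.9 and 81.2 in Fzd5KO. It rose at day 3 by 1.54 ± 0.056 (adjusted p = 1.16e-09), a ratio of mean TPM of 2.98 and above 98.7% of all tested genes. As for Egln3, its Ctrl level fell between the days, by 0.40 on the log2 scale (adjusted p = 0.000272), and its Fzd5KO level rose by 1.11 ± 0.056 (adjusted p = 3.57e-08).

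Bnip3 and Bnip3l are mitochondrial receptors for mitophagy. Bnip3 had 7.66, 7.27 and 7.56 TPM in Ctrl and 4.19, 7.14 and 6.61 in Fzd5KO at day 1. At day 3 Bnip3 had 5.87, 4.29 and 4.95 TPM in Ctrl and 11.8, 12.2 and 11.9 in Fzd5KO, a change of 1.11 ± 0.15 (adjusted p = 4.95e-05) and a ratio of mean TPM of 2.38. At day 1 its Fzd5KO libraries were all below the Ctrl libraries, but the change did not pass the test, and replicate 1 of Fzd5KO, with 4.19 TPM, was the lowest of all 12. Bnip3l had 33.7, 33.8 and 29.6 TPM in Ctrl and 29.7, 30.6 and 30.4 in Fzd5KO at day 1. At day 3 Bnip3l had 30.7, 27.5 and 24.8 TPM in Ctrl and 39.7, 32.0 and 38.1 in Fzd5KO, a smaller change of 0.39 ± 0.090 (adjusted p = 0.00287). For both receptors each Fzd5KO library of day 3 was above each Ctrl library of that day.

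Vegfa, the growth factor for blood vessels (chr17:46016993-46032369, minus strand), had 39.2, 50.2 and 43.8 TPM in Ctrl and 39.1, 44.4 and 43.7 in Fzd5KO at day 1. At day 3 Vegfa had 41.6, 40.2 and 38.3 TPM in Ctrl and 67.5, 67.2 and 67.8 in Fzd5KO. The 3 Fzd5KO libraries of day 3 were nearly equal and lay above all other libraries, with a change of 0.74 ± 0.078 (adjusted p = 7.49e-06). At day 1 the change was -0.06 ± 0.078 (adjusted p = 0.605), and it turned positive, without passing, with median-of-ratios scaling (0.11), rescaled TPM (0.052), quantile normalization (0.055) and without Ctrl replicate 2 of day 1 (0.031). Adm, the vasodilator peptide adrenomedullin, was low in all groups, with 0.49, 1.10 and 0.52 TPM in Ctrl and 0.57, 0.80 and 0.49 in Fzd5KO at day 1. At day 3 Adm had 0.98, 0.85 and 0.98 TPM in Ctrl and 1.71, 2.02 and 1.73 in Fzd5KO. Its fitted change at day 3 was 0.54 ± 0.15 (adjusted p = 0.00714), and this size ranged from 0.20 with a pseudocount of 5 to 0.89 with a pseudocount of 0.1. Its passing of the filter depended on the Fzd5KO libraries of day 3, so its place among the higher rows supports nothing.

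Ankrd37, an ankyrin repeat protein and HIF target, was the member with the largest day 1 rise. It had 2.47, 2.40 and 2.15 TPM in Ctrl and 4.55, 5.61 and 6.17 in Fzd5KO at day 1, a ratio of mean TPM of 2.33 and a change of 0.94 ± 0.13 (adjusted p = 0.000675). At day 3 it had 6.86, 5.30 and 4.49 TPM in Ctrl and 10.4, 9.16 and 9.43 in Fzd5KO and a change of 0.72 ± 0.13 (adjusted p = 0.000562), and the groups did not overlap on either day. Higd1a, a small protein of the respiratory chain, had 27.9, 22.8 and 26.1 TPM in Ctrl and 33.3, 28.3 and 30.3 in Fzd5KO at day 1. At day 3 Higd1a had 26.6, 26.5 and 25.9 TPM in Ctrl and 32.3, 33.3 and 36.3 in Fzd5KO, with changes of 0.25 ± 0.077 (adjusted p = 0.0354) and 0.35 ± 0.077 (adjusted p = 0.00191). Its day 1 call was lost without Ctrl replicate 2 or 3 or Fzd5KO replicate 1 or 3 of day 1 (adjusted p from 0.0584 to 0.125). P4ha1, a subunit of the hydroxylase of collagen prolines, had 1.44, 1.23 and 1.87 TPM in Ctrl and 2.69, 3.01 and 2.82 in Fzd5KO at day 1, a rise of 0.62 ± 0.11 (adjusted p = 0.00314). At day 3 P4ha1 had 2.60, 2.46 and 2.63 TPM in Ctrl and 2.40, 2.73 and 3.18 in Fzd5KO, where the groups overlapped.

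Members that went down included a well-known hypoxia target. Ndrg1, a stress and differentiation gene (chr15:66929318-66969640, minus strand), had 36.9, 37.3 and 34.8 TPM in Ctrl and 25.0, 23.1 and 24.3 in Fzd5KO at day 1. At day 3 Ndrg1 had 37.2, 37.7 and 34.8 TPM in Ctrl and 23.2, 23.9 and 23.8 in Fzd5KO. The Fzd5KO means were 66.5% and 64.6% of Ctrl, and the falls were 0.57 on the log2 scale at day 1 (adjusted p = 2.22e-05) and 0.61 at day 3 (adjusted p = 6.38e-07). It was the member that stayed lower at day 1 under every scaling tried. Ddit4, a stress-induced inhibitor of mTOR signalling, had 4.94, 6.87 and 6.54 TPM in Ctrl and 7.27, 8.69 and 7.59 in Fzd5KO at day 1, each Fzd5KO library above each Ctrl library but without passing the test (adjusted p = 0.0583). At day 3 the order was opposite, with 12.8, 12.6 and 11.6 TPM in Ctrl and 8.94, 10.6 and 8.67 in Fzd5KO and a fall of 0.36 on the log2 scale (adjusted p = 0.016). That fall was lost after quantile normalization (-0.18, adjusted p = 0.161) or median-of-ratios scaling (-0.22, adjusted p = 0.0935), and without Ctrl replicate 1 or Fzd5KO replicate 1 or 3 of day 3 (adjusted p from 0.0511 to 0.0595). The other 2 members of this role, the histone demethylase Kdm3a (25.5 to 37.9 TPM) and the lipid droplet protein Hilpda (0.80 to 2.38 TPM), passed in neither genotype comparison.

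The difference between the days was tested itself, as the Fzd5KO effect at day 3 minus that at day 1. It was higher in 22 of 38 rows and lower in 2, against 25.3% and 19.1% of all tested genes, with a median of 0.41 against 0.01. The split was 21 and 5 under quantile normalization and 18 and 5 with the rescaled TPM. Over all tested genes, calls in either direction went from 6434 of 14510 to 6357 and, of 16023, to 7077. By role, the signed effect was higher at day 3 for 5 of 9 members of glucose entry and kinases, 7 of 10 of the lower pathway and 1 of 2 at pyruvate. The same was so for 4 of 5 HIF factors and hydroxylases and 5 of 12 other targets, where it was lower for P4ha1 and Ddit4. A higher signed effect includes a turn from negative to positive, as for Hk2 and Arnt, and need not be a larger one. Egln3 had the largest difference, 1.60 ± 0.097 (adjusted p = 1.69e-07), followed by Mxi1 at 1.51 ± 0.079 (adjusted p = 5.26e-08) and Bnip3 at 1.42 ± 0.21 (adjusted p = 0.000197). For Gapdh it was 0.83 ± 0.066 (adjusted p = 1.55e-06), for Pkm 0.76 ± 0.050 (adjusted p = 3.12e-07) and for Ldha 0.64 ± 0.043 (adjusted p = 3.68e-07). Slc2a1 did not pass, at 0.29 ± 0.11 (adjusted p = 0.0592), though it did under quantile normalization (adjusted p = 0.0414) and without Ctrl replicate 2 of day 1 (adjusted p = 0.0333). Ndrg1 did not pass either, with falls of similar size on both days. The difference for Adm, 0.60 ± 0.21 (adjusted p = 0.0348), no longer passed when any 1 of 8 of the 12 libraries was left out (adjusted p from 0.0515 to 0.0779).

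Within each genotype the members also moved from day 1 to day 3. In Fzd5KO 28 of 38 rows rose and none fell, against 34.4% and 10.5% of all tested genes, and none was lower at an unadjusted limma p under 0.05. Under each of the 3 other scalings 1 row fell. The median was 0.45 against 0.11. In Ctrl 14 rose and 5 fell, against 25% and 11%, with a median of 0.05 against 0.11. The Ctrl split depended on the scaling, with 5 higher and 16 lower under median-of-ratios scaling and 9 and 10 after quantile normalization. Over all 14510 tested genes, calls in either direction went from 5236 to 4339 and 4521, and the median from 0.11 to 0.0055 and 0.027. The 5 that fell in Ctrl were Egln3, Mxi1, Bnip3 (-0.50 ± 0.15 (adjusted p = 0.0213)), Eno3 (-0.27 ± 0.082 (adjusted p = 0.0264)) and Gapdh (-0.18 ± 0.047 (adjusted p = 0.013)), and all 5 kept that direction under each alternative. Each of them rose in Fzd5KO over the same time, for example Bnip3 by 0.92 ± 0.15 (adjusted p = 0.000331), Eno3 by 0.49 ± 0.082 (adjusted p = 0.000454) and Gapdh by 0.65 ± 0.047 (adjusted p = 5.49e-07). Hif1a, which did not pass in Ctrl, rose in Fzd5KO by 0.80 ± 0.063 (adjusted p = 1.16e-06). The Ctrl fall of Bnip3 was lost without Ctrl replicate 1 or 3 of day 1 or Ctrl replicate 2 of day 3 (adjusted p from 0.0554 to 0.0816), that of Eno3 without Ctrl replicate 2 or 3 of day 1 or Ctrl replicate 3 of day 3 (adjusted p from 0.0672 to 0.0816), and that of Gapdh without Ctrl replicate 1 of day 1 (adjusted p = 0.0503). With no filter on low values the Ctrl falls of Bnip3 (adjusted p = 0.0554) and Eno3 (adjusted p = 0.052) were lost too, and that of Eno3 also with only the groups compared in the fit (adjusted p = 0.0901). Cell type markers moved over the same time. In Ctrl 6 of 8 enterocyte markers and 7 of 7 T cell markers fell, while 5 of 6 stem cell markers, 4 of 6 cycling genes and 4 of 5 red blood cell markers tested rose. In Fzd5KO 8 of 8 enterocyte and 6 of 6 B and plasma cell markers rose, while 5 of 6 stem cell markers and 5 of 6 cycling genes fell. The B and plasma cell count carries the limit of the filter given above. Their part in the time changes of the members was not tested. The time and genotype comparisons share libraries, and their values are given side by side for that reason.

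Levels per length also show which form of each enzyme the members represent. Hkdc1, a hexokinase outside the set, made up 91.4% ± 0.85 (SD, n = 3) of the summed hexokinase level in Ctrl at day 1 and 91.2% ± 0.33 in Fzd5KO at day 3, and Hk2 held 6.42% ± 0.38 and 6.87% ± 0.35. Summed hexokinase was 195.2 ± 2.8 TPM in Ctrl and 275.3 ± 5.4 in Fzd5KO at day 3. Pfkp held 85.3% ± 0.29 of the phosphofructokinase sum in Ctrl and 89.4% ± 0.74 in Fzd5KO at day 3, and Pfkl 12.6% ± 0.13 and 9.38% ± 0.62. Pkm held 79.0% ± 1.4 of the pyruvate kinase sum in Ctrl and 73.0% ± 1.6 in Fzd5KO at day 3, the rest being Pklr. Thus Pkm rose in TPM at day 3 while its share of its own family was lower.

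Among the HIF alpha subunits the share of Hif1a was 89.4% ± 1.8 in Ctrl and 91.8% ± 0.51 in Fzd5KO at day 3, while the sum went from 38.6 ± 2.0 to 76.4 ± 4.5 TPM. Among the prolyl hydroxylases, at day 3 Egln3 held 13.3% ± 0.45 in Ctrl and 36.8% ± 1.7 in Fzd5KO, and Egln2 69.0% ± 1.3 and 48.8% ± 1.9. At day 1 the Egln3 shares were 22.3% ± 0.44 and 25.1% ± 1.8. These shares are descriptions without a test.

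Other genes of the same pathways, taken from lists chosen with earlier results of these data known, were counted for comparison. The shares over all tested genes were 24.3% higher and 38.5% lower at day 3, and 2.13% and 22.8% at day 1. Of 10 other glycolysis genes tested, 6 rose and 2 fell at day 3, and 2 rose and 1 fell at day 1. Slc16a3, the lactate exporter MCT4 and a known hypoxia target, went from 16.3 ± 1.4 to 59.3 ± 1.9 TPM (SD, n = 3) at day 3, a change of 1.81 ± 0.079 (adjusted p = 5.1e-09). At the entry of pyruvate into mitochondria, 2 of 13 (15.4%) rose and 6 (46.2%) fell at day 3, shares near those of all tested genes. The kinase Pdk2 rose by 0.96 ± 0.074 (adjusted p = 5.62e-07), and Pdha1, a subunit of pyruvate dehydrogenase, fell by 0.30 on the log2 scale (adjusted p = 1.82e-05). At day 1, 1 of those 13 rose and 5 fell.

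Of 11 other HIF pathway genes tested, 1 rose and 2 fell at day 3, and 1 fell at day 1, when no gene was higher even at an unadjusted limma p under 0.05. The gene that rose was Arnt2, a partner related to Arnt, from 1.28 ± 0.14 to 6.81 ± 0.38 TPM (1.78 ± 0.12 (adjusted p = 1.35e-07)). Of 22 other hypoxia targets, 11 rose and 5 fell at day 3, and 2 rose and 3 fell at day 1. Nt5e, which makes adenosine outside cells, rose on both days, by 1.14 ± 0.044 (adjusted p = 3.73e-08) and 2.0 ± 0.044 (adjusted p = 4.79e-11). P4hb, a folding enzyme of the endoplasmic reticulum, rose by 1.13 ± 0.028 (adjusted p = 7.28e-11) and Ero1l, its oxidase, by 1.02 ± 0.072 (adjusted p = 2.66e-07), while Mif, a cytokine, fell by 0.52 on the log2 scale (adjusted p = 5.02e-06). Of 7 genes of intestinal iron handling listed as Epas1 targets, Steap4, Cybrd1 and Hephl1 stayed below 1 TPM in every library. Of the 4 tested, 2 rose, 1 fell and 1 did not pass at day 3. Heph, a ferroxidase, rose by 1.08 ± 0.035 (adjusted p = 5.6e-10) and Slc11a2, the apical iron transporter, by 0.34 ± 0.10 (adjusted p = 0.0145). Tfrc, the transferrin receptor, fell by 0.77 on the log2 scale (adjusted p = 6.87e-08).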

How the data were processed

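The authors deposited 1 table of TPM values for 55421 genes in 12 libraries, with 0 columns of other samples. Tools named in the submitters' processing notes, with no role or order, are bcl2fastq 2.18, STAR 2.7.3a and RSEM, and the build is mm10; RNA purification (RNeasy) and library making (TruSeq Stranded Total RNA) are per the labels' protocols. The annotation and the use of strand: not given in the sources used here. Genes reaching 1 TPM in 3 or more libraries entered the test as log2(TPM + 1), which understates the change of low genes, in R 4.3.3 with limma 3.58.1: 4 group means, trended empirical Bayes, 8 residual degrees of freedom, Benjamini-Hochberg adjustment over 14510 genes, threshold 0.05. The method was tested on simulated data. Contrasts were the genotype effect at each day, their difference and time within each genotype. The alternatives tried were a filter of 5 TPM, no filter, pseudocounts of 0.1 and 5, median-of-ratios scaling, quantile normalization, TPM rescaled without mitochondrially encoded and the 20 most abundant genes, a replicate block, only the groups compared, and leaving out each library. Member names and all gene lists were chosen with earlier results of these data known. Members called in a genotype contrast or in the difference, and Slc2a1, Gapdh, Hif1a, Epas1, Arnt, Vegfa and Ldha in any case, are described by library; others by range. From each other pathway list at most 4 genes that passed were named per genotype contrast, by smallest p, and at most 3 from each marker list. 1 gene of those lists and the values that rest on it are not reported here. Gene coordinates are from GENCODE M21 (GRCm38, that is mm10; 202 of 202 list genes matched), and promoters from RefSeq on GRCm38.p6. Figures were drawn with matplotlib 3.10.9 under Python 3.11.15. Depth is unknown, since TPM hold no read totals.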

Additional observations from a re-analysis of the deposited data

Results flagged for a closer look

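For 24 of the 38 member rows the Fzd5KO effect differed between day 3 and day 1 by a test of the difference itself (limma, Benjamini-Hochberg adjusted over all tested genes), 22 of them with a higher and 2 with a lower value. Over all tested genes 25.3% had a higher and 19.1% a lower value. Values below are log2 effects at day 3 minus day 1 with their SE. Among glucose entry and the kinases they were 0.93 ± 0.13 (adjusted p = 0.000168) for Hk2, 0.78 ± 0.17 (adjusted p = 0.00327) for Hk1, 0.63 ± 0.053 (adjusted p = 2.54e-06) for Pfkfb4, 0.51 ± 0.041 (adjusted p = 1.48e-06) for Pfkp and 0.39 ± 0.051 (adjusted p = 7.79e-05) for Gpi1. In the lower pathway they were 0.83 ± 0.066 for Gapdh, 0.76 ± 0.050 for Pkm, 0.76 ± 0.12 for Eno3, 0.75 ± 0.055 for Eno1, 0.38 ± 0.057 for Tpi1, 0.21 ± 0.049 for Pgk1 and 0.14 ± 0.054 for Pgam1. The largest adjusted p of those 7 was 0.0496, for Pgam1. Ldha had 0.64 ± 0.043 (adjusted p = 3.68e-07).

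Among HIF factors and hydroxylases the differences were 1.60 ± 0.097 for Egln3, 0.93 ± 0.089 for Hif1a, 0.52 ± 0.13 for Epas1 and 0.44 ± 0.088 for Arnt, with adjusted p of at most 0.00752. Other targets with a higher effect at day 3 were Mxi1 at 1.51 ± 0.079, Bnip3 at 1.42 ± 0.21, Vegfa at 0.80 ± 0.11, Adm at 0.60 ± 0.21 and Bnip3l at 0.48 ± 0.13, with adjusted p of at most 0.0348; the Adm call ended without any 1 of 8 of the 12 libraries (adjusted p from 0.0515 to 0.0779). Lower effects were found for P4ha1, -0.54 ± 0.16 (adjusted p = 0.0161), and Ddit4, -0.68 ± 0.16 (adjusted p = 0.00478). For Hk2 and Arnt the effect was negative at day 1 and positive at day 3, with both passing the test on the TPM as deposited. The day 1 falls of Hk2 and Arnt were lost with median-of-ratios scaling, rescaled TPM and quantile normalization. At day 1, 22.8% of all tested genes were lower. The libraries of Ddit4 were in opposite order on the 2 days.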

How the results depend on the processing

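The 25 higher and 3 lower rows of day 3 were 24 to 29 and 2 to 3 under every alternative. Counts of rows higher and lower at day 1 (11 and 5) were 20 and 1 with median-of-ratios scaling, 14 and 1 with quantile normalization, 15 and 1 with the rescaled TPM and 9 and 1 with no filter. Calls over all tested genes, in either direction, moved too, from 3622 to 2216, 1771, 1810 and 2702 in that order. Without 1 library the member counts ranged from 8 to 11 and from 1 to 5. With 1 library left out, day 3 gave 25 to 26 higher and 2 to 3 lower, the difference between the days 20 to 23 and 2 to 3, time in Ctrl 9 to 14 and 4 to 6, and time in Fzd5KO 27 to 29 and 0. The lowest Ctrl value, 9, came without Ctrl replicate 1 of day 1 or Ctrl replicate 2 of day 3. The difference between the days (22 and 2) had 5 lower rows with quantile normalization and with the rescaled TPM, and 1 with the stricter filter of 5 TPM. Time in Ctrl (14 and 5) gave 5 and 16 with median-of-ratios scaling, 9 and 10 with quantile normalization and 3 lower rows with no filter; time in Fzd5KO (28 and 0) gave 1 lower row under each of the 3 scalings. Pgam1 reversed under quantile normalization at day 3 (-0.065), in the difference between the days (-0.17) and over time in Fzd5KO (-0.027), and with the rescaled TPM in the difference (-0.025); Pgk1 reversed in the difference under quantile normalization (-0.096). Effects that had not passed also changed sign: Slc2a1 at day 3 with the rescaled TPM (-0.025) and without Ctrl replicate 1 of day 3 (-0.010; leave-one-out range -0.010 to 0.059), Vegfa at day 1 with median-of-ratios scaling (0.11), the rescaled TPM (0.052), quantile normalization (0.055) and without Ctrl replicate 2 of day 1 (0.031; leave-one-out range -0.14 to 0.031), and Epas1 at day 1 without Ctrl replicate 1 of day 1 (-0.035; leave-one-out range -0.035 to 0.14). The cause of these changes was not tested. In the difference between the days, Adm lost its call with a pseudocount of 0.1 (adjusted p = 0.0796), no filter (0.0675), the rescaled TPM (0.0678) and without any 1 library other than Ctrl replicate 1 or 3 or Fzd5KO replicate 2 of day 1 or Fzd5KO replicate 1 of day 3 (0.0515 to 0.0779). Pgam1 lost it without any 1 library other than Ctrl replicate 1 or 3 of day 1 (adjusted p from 0.059 to 0.0969), and Pgk1 (0.395) and Bnip3l (0.0596) with the rescaled TPM. With the replicate block the counts were 12 and 5 at day 1, 25 and 3 at day 3, and 22 and 2 for the difference. None of 18 pairs of same-numbered libraries had deviations correlated above 0.1. The labels state no pairing, and such correlations cannot exclude that same-numbered libraries share a source or a batch. TPM keep no depth, so no counting error could be given, and members under 5 TPM are the least certain.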
